A study of Mus musculus with 2 samples.

Results

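The genes described here encode the TGF-beta ligand that acts on microglia, the molecule that holds it at the cell surface, its 2 receptor chains, and the SMAD proteins and corepressors that carry or limit its signal in the nucleus. They are Tgfb1, Nrros, Tgfbr1, Tgfbr2, Smad2, Smad3, Smad4, Smad7, Ski and Skil, 10 of the 53801 genes listed in each count file, and were chosen by name for their known place in this pathway. RNA was sequenced from microglia of 2 sham-operated mice, with 1 mouse per library, and the cells had been sorted as CD11c–Ly6G–CD11b+CD45low from the left hemisphere 3 days after sham surgery. Both animals were male Cx3cr1(CreER/wt) mice of 8 to 10 weeks on a C57BL/6 background, although the methods of the study describe a somewhat older range and both sexes. The CreER recombinase sits in a single Cx3cr1 allele, so it is made in microglia and other cells that use the Cx3cr1 promoter, and no floxed gene was present. Each mouse had received tamoxifen at 75 mg/kg daily for 4 days, starting 14 days before surgery. The sample titles name sham surgery, while the treatment field of the labels reads none. Libraries of stroke-operated mice were not analysed here. The values below describe the level of the pathway after sham surgery and how far it differed between 2 libraries of the same group.

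TGF-beta is made as a latent complex in which the mature cytokine stays wrapped in its own propeptide. On microglia the complex is tethered by NRROS, also called LRRC33, and is released by integrins that bind the propeptide. Free TGF-beta joins the type II receptor TGFBR2 to the type I receptor TGFBR1, which phosphorylates SMAD2 and SMAD3. These enter the nucleus with SMAD4, while SMAD7, SKI and SKIL dampen the signal. In the brain this pathway is known for keeping microglia in their homeostatic state.

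The libraries held 23381026 and 41142609 counts on genes, and levels are given as CPM, the count scaled to a total of 1000000. Where a gene had none, a level of up to 3 counts remains possible, or 0.128 CPM for library 1 and 0.0729 for library 2. Intervals cover counting error at the 95% level, not the spread between mice, and amplified reads are not independent molecules. The 10 microglia markers summed to 37708 and 43066 CPM in the respective libraries, and each was counted in both. The 10 neutrophil markers summed to 4436 and 60696 CPM, and each was over 2-fold higher in library 2. The 6 monocyte markers summed to 701 and 3367 CPM, where Chil3 with 455 and 2901 CPM and Ly6c2 with 90.3 and 302 CPM carried the difference and Plac8 and Vcan were lower in library 2. The 6 border macrophage markers summed to 629 and 273 CPM. Mrc1, Cd163 and F13a1 were over 2-fold lower in library 2, beside 25.9% of all genes with 10 or more counts in each library. Lyve1 and Cbr2 were lower by less than 2-fold, and Ms4a7 was higher, with 47.4 and 59.0 CPM. The sums were 44.3 and 61.5 CPM for 5 platelet markers, nearly all of it Gp9 with Gp5 at 0 in both, 0.171 and 2.82 CPM for 5 T cell markers, with Cd3e and Cd8a at 0 in both, and 18.7 and 15.5 CPM for 5 endothelial markers. They were 224 and 176 CPM for 5 astrocyte markers, mostly Slc1a3, and 55.8 and 57.2 CPM for 5 oligodendrocyte markers. In bulk samples such as these, fewer cells of a type and less RNA per cell cannot be told apart.

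The main result for the pathway is that 7 of its 10 genes had less RNA in library 2 by a factor of 3.23 to 5.91, and the other 3 differed by a factor of 1.23 or less. After adjustment for GC content and transcript length, 3 of the 10 were over 2-fold lower, and all 3 were among the 7. With this adjustment 12.7% of all genes with 10 or more counts in each library were over 2-fold lower. The 7 were Tgfbr2, Smad3, Tgfb1, Smad7, Tgfbr1, Skil and Ski, in order from the largest difference. The 3 that differed by a factor of 1.23 or less were Smad4, Nrros and Smad2. Among the 13445 genes that reached 10 counts in each library, called counted genes below, 25.9% were over 2-fold lower in library 2 and 5.74% were over 2-fold higher. No member was over 2-fold higher. The median log2 ratio of library 2 over library 1 was -1.79 for the members and -0.26 for all counted genes. With only 2 libraries of 1 group, no test of these ratios was possible, and they describe 2 libraries rather than a condition.

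**Figure D1:**
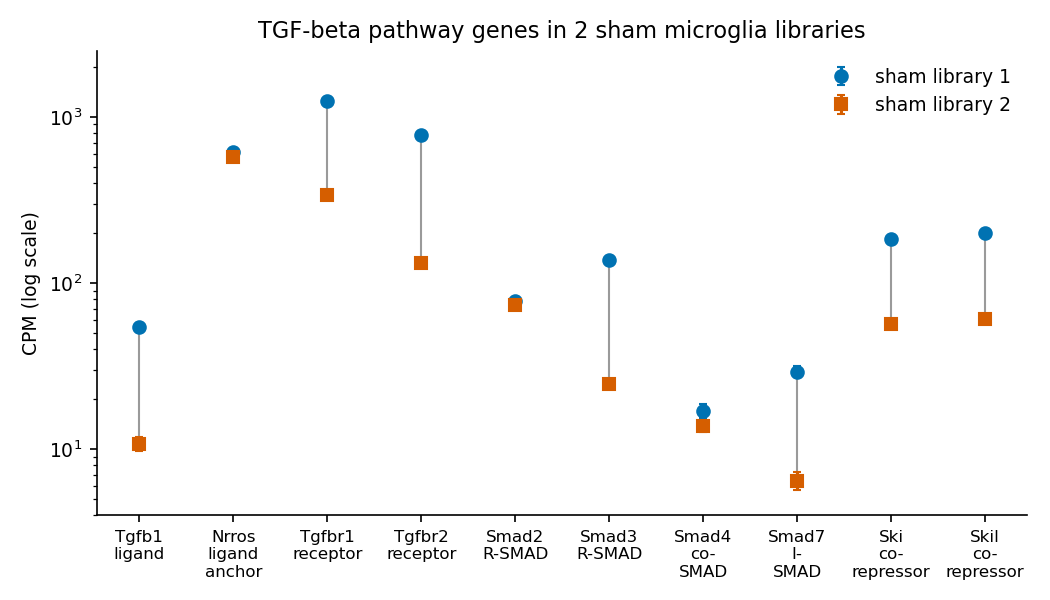
Level of each member (CPM, log scale) in sham library 1 (circles) and sham library 2 (squares), with exact 95% counting intervals that are mostly smaller than the symbols. Nrros, Smad2 and Smad4 lie close together in the 2 libraries, while Tgfb1, Tgfbr1, Tgfbr2, Smad3, Smad7, Ski and Skil are lower in library 2.

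RefSeq promoter windows on GRCm38.p6 were at hand for 6 of the 10 members. The 250 bases before the start site are shown for the 3 members with the lowest ratio, Tgfbr2, Smad3 and Tgfb1, and for Nrros, whose level hardly differed. Each is written 5′ to 3′ on the strand of the gene. Capitals mark matches on either strand to GGGCGG, the GC box that Sp factors bind, to CAGAC, a short SMAD-binding element, or to AGGAAG, a core of ETS factors such as PU.1. The windows are chr7:25686752-25687001 on the plus strand for Tgfb1, and chr9:116175364-116175613, chr9:63757995-63758244 and chr16:32165595-32165844 on the minus strand for Tgfbr2, Smad3 and Nrros.
Tgfb1: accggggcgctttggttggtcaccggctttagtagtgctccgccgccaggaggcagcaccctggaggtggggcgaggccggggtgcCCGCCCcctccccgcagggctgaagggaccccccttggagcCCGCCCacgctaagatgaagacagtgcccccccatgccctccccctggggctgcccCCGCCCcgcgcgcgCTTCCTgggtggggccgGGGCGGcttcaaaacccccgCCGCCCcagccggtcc
Tgfbr2: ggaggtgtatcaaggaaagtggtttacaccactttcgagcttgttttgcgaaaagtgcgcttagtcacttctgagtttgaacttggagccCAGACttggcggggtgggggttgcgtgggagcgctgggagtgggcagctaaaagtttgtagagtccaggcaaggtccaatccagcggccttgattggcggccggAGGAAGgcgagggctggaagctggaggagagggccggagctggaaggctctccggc
Smad3: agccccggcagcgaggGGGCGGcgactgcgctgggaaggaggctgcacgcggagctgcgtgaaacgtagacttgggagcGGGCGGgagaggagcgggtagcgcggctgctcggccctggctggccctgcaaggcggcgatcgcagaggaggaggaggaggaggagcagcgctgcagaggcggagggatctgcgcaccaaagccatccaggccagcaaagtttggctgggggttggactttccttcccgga
Nrros: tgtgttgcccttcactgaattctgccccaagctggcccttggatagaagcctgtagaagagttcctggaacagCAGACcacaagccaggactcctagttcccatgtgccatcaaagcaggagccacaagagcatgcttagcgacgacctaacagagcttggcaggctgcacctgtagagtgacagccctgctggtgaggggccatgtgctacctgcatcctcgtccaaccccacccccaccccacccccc

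GC content of these windows was 75.2% for Tgfb1 and 69.2% for Smad3, but 58.4% for both Tgfbr2 and Nrros, beside a median of 52.4% over all 32851 RefSeq windows. The Nrros window held 3 CpG dinucleotides, against 12 for Tgfbr2, 22 for Smad3 and 21 for Tgfb1. GGGCGG was found 5 times for Tgfb1 and 2 times for Smad3, and not for Tgfbr2 or Nrros, and 32.7% of all windows held it. CAGAC was found 1 time each for Tgfbr2 and Nrros, beside 42.2% of all windows. AGGAAG was found 1 time each for Tgfb1 and Tgfbr2, beside 29.5% of all windows. No match to one motif overlapped a match to another in these windows. None of these motifs was shared by the 3 lower genes shown and absent from Nrros. Among windows not shown, Ski held GGGCGG 5 times. Tgfbr1 held it 2 times in the window at its gene start and 0 times in another window. A match describes letters only, and whether any motif bears on the ratios was not tested.

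The ligand gene was expressed at a modest level and the gene of its anchor at a high level. Tgfb1 (ENSMUSG00000002603, chromosome 7 of GRCm38, 25687002 to 25705077) had 1279 and 441 counts in libraries 1 and 2, or 54.7 CPM (95% interval 51.7 to 57.8) and 10.7 CPM (9.74 to 11.8). Its mean was 32.7 ± 31.1 CPM (SD, n = 2 libraries), and library 1 was 5.10-fold above library 2. Tgfb1 stood above 74.7% of the counted genes in library 1 and above 45.0% in library 2, so its place in the range differed as well. Nrros (ENSMUSG00000052384, chromosome 16, 32142785 to 32165594) had 14385 and 23655 counts, or 615 CPM (605 to 625) and 575 CPM (568 to 582). Its mean was 595 ± 28.5 CPM (SD, n = 2), above 98.5% and 98.4% of the counted genes. Its log2 ratio was -0.10 (-0.13 to -0.07), but 0.13 with TMM scaling and 0.18 with DESeq2 size factors, so the small difference had no fixed direction. Per kilobase of exon, Nrros exceeded Tgfb1 by 13.6-fold in library 1 (12.8 to 14.4) and by 64.7-fold in library 2 (58.9 to 71.1). With lengths from the longest transcript these were 8.09-fold and 38.6-fold.

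Both receptor genes were abundant in library 1 and much lower in library 2. Tgfbr1 (ENSMUSG00000007613, chromosome 4, 47353222 to 47414931), the type I receptor kinase, had 29279 and 13975 counts, or 1252 CPM (1238 to 1267) and 339.7 CPM (334 to 345). Its mean was 796 ± 645 CPM (SD, n = 2), and it stood above 99.4% and 97.2% of the counted genes. Tgfbr2 (ENSMUSG00000032440, chromosome 9, 116084293 to 116175360), the ligand-binding type II receptor kinase, had 18281 and 5447 counts, or 782 CPM (771 to 793) and 132 CPM (129 to 136). Its mean was 457 ± 459 CPM (SD, n = 2). It had the lowest ratio of all members, a log2 ratio of -2.56 (-2.61 to -2.52), and only 2.45% of the counted genes had a lower one. Tgfbr1 had a log2 ratio of -1.88 (-1.91 to -1.85). Per kilobase, Tgfbr1 exceeded Tgfbr2 by 2.01-fold in library 1 (1.97 to 2.04) and by 3.21-fold in library 2 (3.12 to 3.32), so the type I chain led in both libraries. With the median coding transcript the ratio was 3.95 and 6.33.

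The receptor-activated SMADs parted from each other. Smad2 (ENSMUSG00000024563, chromosome 18, 76241580 to 76305731) had 1815 and 3049 counts, or 77.6 CPM (74.1 to 81.3) and 74.1 CPM (71.5 to 76.8), with a mean of 75.9 ± 2.49 CPM (SD, n = 2). Its log2 ratio was -0.07 (-0.15 to 0.02, counting error only). With TMM scaling it was 0.16, so this small difference had no fixed direction. Smad3 (ENSMUSG00000032402, chromosome 9, 63646767 to 63757994) had 3208 and 1022 counts, or 137 CPM (132 to 142) and 24.8 CPM (23.3 to 26.4), with a mean of 81.0 ± 79.5 CPM (SD, n = 2). Its log2 ratio was -2.47 (-2.57 to -2.36). The order of these paralogs therefore changed between the libraries. With 1 mouse per library, mouse and library preparation cannot be told apart. Per kilobase, Smad3 was 2.80-fold above Smad2 in library 1 (2.64 to 2.97) and 0.531-fold of it in library 2 (0.495 to 0.570). The change in this ratio between the libraries was -2.40 on the log2 scale (-2.53 to -2.27, counting error only). With lengths taken from the longest transcript, the Smad3 to Smad2 ratio was 2.81 and 0.533, and with the median coding transcript it was 3.81 and 0.723.

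Smad4 and Smad7 were the least abundant members by mean CPM per kilobase. Smad4 (ENSMUSG00000024515, chromosome 18, 73639009 to 73703780), the shared partner of the activated SMADs, had 399 and 571 counts, or 17.1 CPM (15.4 to 18.8) and 13.9 CPM (12.8 to 15.1), with a mean of 15.5 ± 2.25 CPM (SD, n = 2). Its log2 ratio of -0.30 (-0.49 to -0.11) was close to the median of all counted genes. Smad7 (ENSMUSG00000025880, chromosome 18, 75367529 to 75395935), the inhibitory SMAD that is itself induced by TGF-beta, had 685 and 266 counts, or 29.3 CPM (27.1 to 31.6) and 6.47 CPM (5.71 to 7.29). Its mean was 17.9 ± 16.1 CPM (SD, n = 2) and its log2 ratio -2.18 (-2.39 to -1.97). Smad7 and Smad3 had similar ratios between the libraries, and per kilobase Smad7 was 0.262-fold of Smad3 in library 1 (0.241 to 0.284) and 0.319-fold in library 2 (0.279 to 0.365). Smad4 per kilobase was 0.186-fold of Smad3 in library 1 (0.167 to 0.206) and 0.834-fold in library 2 (0.753 to 0.924). Against Smad2 it was 0.520-fold (0.467 to 0.580) and 0.443-fold (0.405 to 0.484). These ratios depend on the length used. With the median coding transcript, Smad4 to Smad3 was 0.0268 in library 1, Smad4 to Smad2 was 0.102 and 0.0870 in the respective libraries, and Smad7 to Smad3 was 0.0966 and 0.118.

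The corepressor genes Ski and Skil, whose products bind SMAD complexes on DNA and block transcription, had nearly the same ratio in CPM, but not after adjustment for GC content and length. Ski (ENSMUSG00000029050, chromosome 4, 155154075 to 155222592) had 4292 and 2340 counts, or 184 CPM (178 to 189) and 56.9 CPM (54.6 to 59.2), with a mean of 120.2 ± 89.6 CPM (SD, n = 2). Skil (ENSMUSG00000027660, chromosome 3, 31095058 to 31122577) had 4659 and 2512 counts, or 199 CPM (194 to 205) and 61.1 CPM (58.7 to 63.5), with a mean of 130.2 ± 97.7 CPM (SD, n = 2). The log2 ratios were -1.69 (-1.76 to -1.62) for Ski and -1.71 (-1.78 to -1.64) for Skil. Their difference was 0.02 (-0.08 to 0.12), within counting error, but after the adjustment for GC content and length described below it was 0.93, with Ski at 0.04 and Skil at -0.89. Per kilobase of exon Ski was 1.61-fold above Skil in library 1 (1.54 to 1.67) and 1.62-fold in library 2 (1.53 to 1.72). Which of them is higher rests on the length used, since the ratio was 1.12 and 1.13 with the longest transcript but 0.494 in library 1 with the median coding transcript, with Skil then the higher in both libraries.

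**Figure D2:**
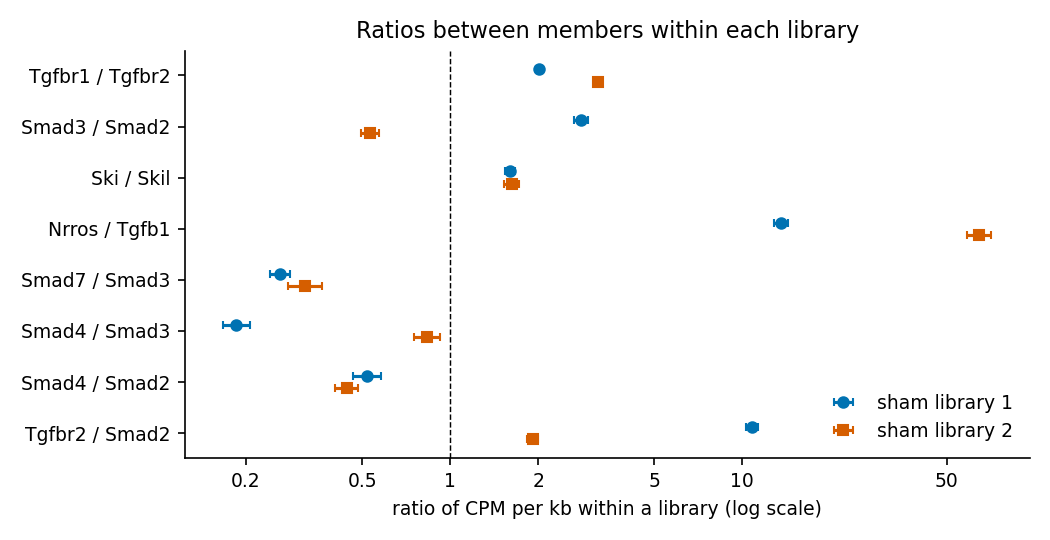
Ratio between members within a library (CPM per kilobase of exon, log scale) for sham library 1 (circles) and sham library 2 (squares), with 95% counting intervals. The Ski to Skil ratio is alike in both libraries at 1.61 and 1.62, and the Smad3 to Smad2 ratio passes from 2.80 to 0.531, across the dashed line of equal levels.

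Ordered by mean CPM per kilobase of exon, the genes ran from Nrros at 142 and Tgfbr1 at 122 through Tgfbr2 at 55.8, Ski at 21.6, Smad3 at 14.6, Skil at 13.4, Smad2 at 8.64 and Tgfb1 at 6.49 to Smad4 at 4.17 and Smad7 at 3.96. The top of this order was shared by the libraries only in part. Tgfbr1 was first in library 1, with 192 against 147 CPM per kilobase for Nrros, and Nrros was first in library 2, with 138 against 52.0. For all 9 pairs of neighbours the ranges of the 2 libraries overlapped, so no neighbours differed beyond that spread, and only 3 of the 9 stood in the same order in both. Over all 45 pairs of members, 25 had ranges that did not overlap and 38 kept their order. With the median coding transcript as length, Tgfbr1 stood first by its mean and Nrros second. Smad3 then ranked 3 at 134 CPM per kilobase, above Tgfbr2 at 79.0, Smad2 ranked 5 at 58.1 and Ski ranked 7 at 22.2. The order below the top thus also rests on the length used. Over the longest and the median coding transcript, 11 of the members' values per kilobase moved by 1 SD or more and 9 did not.

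The size of these ratios was set beside those of all counted genes. The share of genes with a lower ratio was 2.45% for Tgfbr2, 2.89% for Smad3, 3.58% for Tgfb1 and 5.08% for Smad7. It was 8.35% for Tgfbr1, 10.9% for Skil and 11.1% for Ski. It was 48.7% for Smad4, 57.0% for Nrros and 58.3% for Smad2, so these 3 lay in the middle of the CPM ratios. After the adjustment for GC content and length described below, the share was 48.9% for Smad4, 71.8% for Nrros and 85.0% for Smad2. Over 4-fold lower in library 2 were 4 of the 10 members and 6.87% of all counted genes. The common biological coefficient of variation, the relative spread between the libraries over 13455 genes, was 0.479 by edgeR. Among the 7799 genes that reached 250 counts in each library, as every member did, 23.3% were over 2-fold lower in library 2.

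TMM scaling raised every log2 ratio by 0.23 and DESeq2 scaling by 0.27, which brought the median of all counted genes to -0.03 and 0.01. All 7 genes stayed over 2-fold lower with TMM or DESeq2 scaling, with totals free of the neutrophil markers or of mitochondrially encoded genes, and with counts scaled to the microglia markers. Each of these settings adds 1 constant to every log2 ratio, at most 0.27 upward, and the highest of the 7 was Ski at -1.69. None of the 7 could therefore cross the limit, so this outcome says nothing about stability. The share of all counted genes past the same limit was 19.0% to 31.7% in these settings. Leaving the neutrophil markers out of the totals shifted every log2 ratio by 0.08, and their own summed level had a log2 ratio of 3.77. Their part in the members' ratios was otherwise not tested.

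Transcript length moved with the ratios and changed the count of members. Over 10 bins of the longest annotated transcript, the median log2 ratio of all counted genes was 0.17 at 1657 to 2143 bases and -1.05 at 6443 bases or more, where 52.6% of genes were over 2-fold lower in library 2. Tgfbr2, Smad2 and Skil fell in that longest bin, with 8092, 8089 and 6717 bases. Ski, Tgfbr1 and Smad3, with 5522, 5756 and 5090 bases, fell in the bin of 4971 to 6440 bases, where the median was -0.96 and 48.0% were lower. After the median of genes with like GC content and length was subtracted, 3 of the 10 members remained over 2-fold lower, beside 12.7% of all counted genes, and none was over 2-fold higher, beside 9.7%. The members' median was then -0.88. These 3 were Tgfb1 at -2.35, Tgfbr1 at -1.36 and Tgfbr2 at -1.36. Smad3 had -0.99, close to the limit, Skil had -0.89, Smad7 -0.87 and Ski 0.04. Smad4 had -0.01, Nrros 0.38 and Smad2 0.75. Which genes remained depended on the adjustment. With length alone, 4 members stayed over 2-fold lower, beside 14.5% of all counted genes. Smad3 at -1.50 and Smad7 at -1.41 were then among them and Tgfbr1 at -0.92 was not, while Tgfb1 at -2.38 and Tgfbr2 at -1.51 passed the limit both ways. How far length contributed to the ratio of each gene was not tested.

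Tgfbr2 and Smad2, a pair chosen after their values were seen, had longest transcripts of 8092 and 8089 bases and GC contents of 49.6% and 44.9%. They had log2 ratios of -2.56 and -0.07. Their difference of -2.50 (-2.59 to -2.40, counting error only) was -2.11 after adjustment for GC content and length. Their lengths are alike for the longest transcript but not for the median coding transcript, which is longer for Tgfbr2. The longest transcript of Tgfb1, of 2573 bases, lay in a bin of 2144 to 2641 bases whose median was 0.03 and in which 14.6% of genes were over 2-fold lower.

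**Figure D3:**
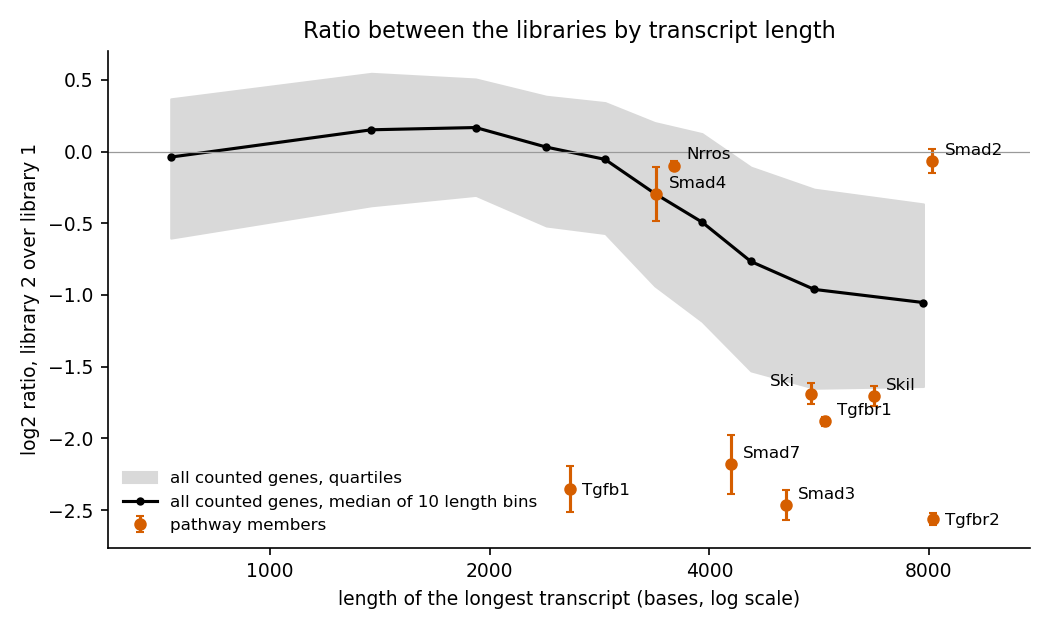
Log2 ratio of library 2 over library 1 against the length of the longest transcript (log scale), for the members (points with 95% counting intervals) and for all counted genes in 10 length bins (line, median; band, quartiles). The median of all genes falls from 0.17 at 1657 to 2143 bases to -1.05 in the longest bin, Smad2 at 8089 bases lies above the band and Tgfbr2 at 8092 bases below it.

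**Figure D4:**
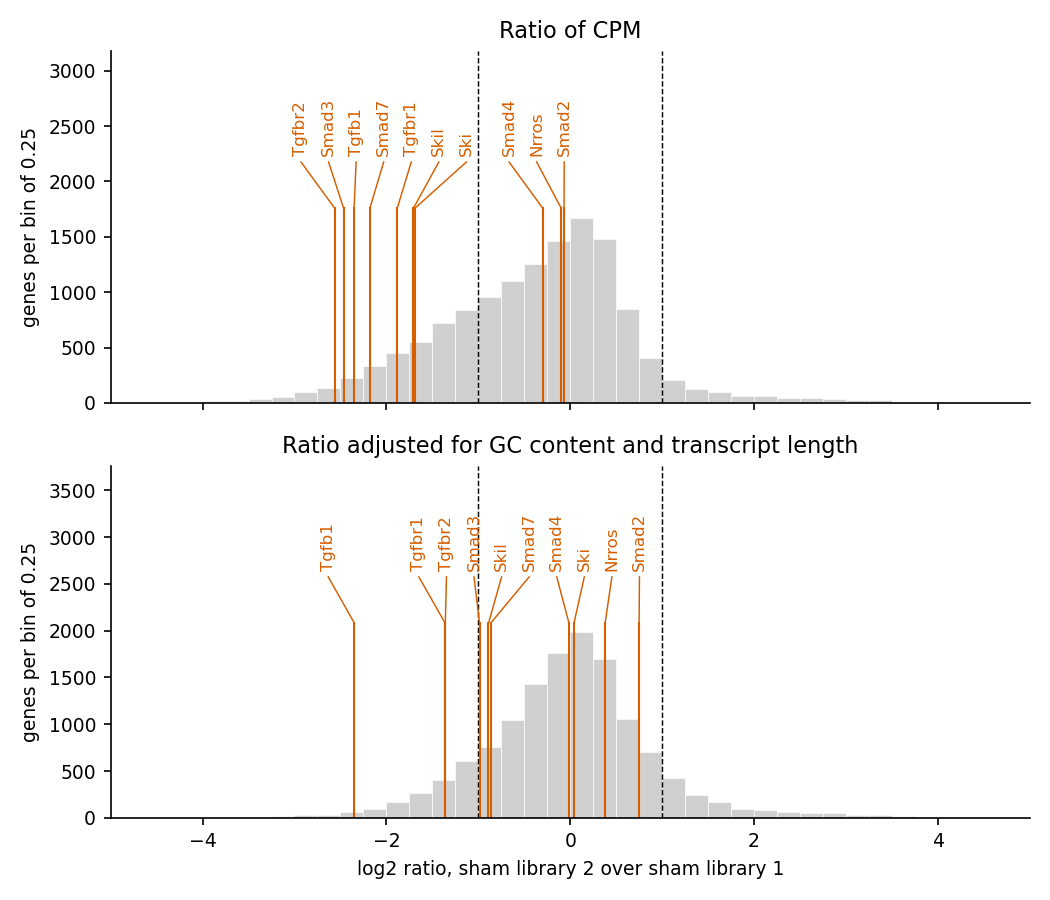
Number of counted genes per bin of 0.25 in the log2 ratio of library 2 over library 1 (grey bars), as CPM above and after adjustment for GC content and transcript length below, with each member as a labelled line and dashed lines at 2-fold. In the upper panel 7 members lie left of the lower dashed line, and in the lower panel 3 do, Tgfb1, Tgfbr1 and Tgfbr2.

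Of 86 other genes of the wider pathway, 68 were counted in both libraries. Among these, 27 (39.7%) were over 2-fold lower in library 2 and 3 were over 2-fold higher, beside 25.9% and 5.74% of all counted genes. Their median log2 ratio was -0.56, and that of all counted genes was -0.26. After adjustment for GC content and length, 8 were lower, 7 were higher and the median was -0.04, beside 12.7% of all counted genes lower and 9.7% higher.

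Of 9 other ligands of the family, 3 were counted in both libraries. Tgfb2 had 4 and 24 counts and Tgfb3 had 2 and 3, both named after their values were seen, which is at most 0.583 CPM. Per kilobase Tgfb2 had at most 0.101 CPM, under Tgfb1 in both libraries. Inhbb, an activin subunit gene, had no count in either library. Inhba, the gene of the activin A subunit, had 38 and 916 counts, or 1.63 and 22.3 CPM, a log2 ratio of 3.78 (3.31 to 4.28). Per kilobase it had 0.254 and 3.48 CPM, so it was below Tgfb1 in library 1 and above it in library 2. Bmp2 had 226 and 51 counts, or 9.67 and 1.24 CPM, with a ratio in the opposite direction of -2.96 (-3.43 to -2.52). The Inhba and Bmp2 ratios rest on few counts in 1 of the libraries.

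Among genes of latency and activation, the integrin chains Itgb1 and Itgb5 had the highest CPM. Itgb1 had 429 and 247 CPM, and Itgb5 had 418 and 227 CPM, so both were under 2-fold lower in library 2. Itgav, the alpha chain that pairs with them to bind latent TGF-beta, had 149 and 35.3 CPM, a log2 ratio of -2.08 (-2.17 to -1.99), and Furin, the protease that cleaves the TGF-beta precursor, had 35.4 and 8.51 CPM, or -2.06 (-2.24 to -1.88). Ltbp3, a latent TGF-beta binding protein gene, had 63 and 13 counts and was likewise over 2-fold lower. These were 3 of the 6 counted genes of this list, beside 25.9% of all counted genes over 2-fold lower. After adjustment for GC content and length, 2 of the 6 were over 2-fold lower, Itgav and Ltbp3, beside 12.7% of all counted genes. Lrrc32, which encodes GARP, the anchor of latent TGF-beta on platelets and regulatory T cells, had 0 and 3 counts. Itgb8, whose product activates TGF-beta with the alpha-V chain, had 8 and 4 counts, and Ltbp1, Ltbp2 and Itgb6 had none. Itgav, Furin, Lrrc32 and Itgb8 were named after their values were seen.

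Of the other receptors, 9 of 12 were counted, 4 of them over 2-fold lower and none higher in library 2, beside 25.9% and 5.74% of all counted genes. After adjustment for GC content and length 0 were lower and 2 were higher, beside 12.7% and 9.7%. Eng, the gene of the co-receptor endoglin, had 147 and 37.7 CPM, a log2 ratio of -1.97 (-2.05 to -1.88). Acvrl1, a type I receptor gene of the BMP branch, had 53.2 and 80.8 CPM, or 0.60 (0.51 to 0.70), and so went the other way from Tgfbr1. Acvr1c and Bmpr1b had no count in either library. Among SMADs of the BMP branch, Smad1 had 115 and 75.1 CPM and Smad5 had 43.7 and 15.5 CPM. Smad6, the inhibitory SMAD of the BMP branch and closest relative of Smad7, had 169 and 13 counts, or 7.23 and 0.316 CPM. Its log2 ratio of -4.52 (-5.45 to -3.70) was the lowest of the wider list, and it was -3.90 after adjustment.

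Regulators of the receptors and SMADs were counted throughout, 15 of 15, with 8 over 2-fold lower in library 2, beside 25.9% of all counted genes. After adjustment for GC content and length 2 were lower, near the background of 12.7%. Smurf1, a ubiquitin ligase that acts on receptors and SMADs, had 78.7 and 11.4 CPM, a log2 ratio of -2.79 (-2.94 to -2.64), and -1.06 after adjustment. Pmepa1, a feedback inhibitor induced by TGF-beta, had 202 and 67.7 CPM, a log2 ratio of -1.58 (-1.65 to -1.51), but -0.04 after adjustment. Fkbp1a, whose product holds the type I receptor silent, had 176.6 and 176.2 CPM. Of 9 counted nuclear partners, 6 were over 2-fold lower, beside 25.9% of all counted genes, and 1 after adjustment, near the background of 12.7%. Ep300, a histone acetyltransferase that works with SMADs, had 139 and 33.3 CPM, Zeb2, a SMAD-binding repressor, had 188 and 88.1 CPM, and Hdac1 had 109 and 142 CPM. Foxh1, a SMAD partner of early embryos, had no count.

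None of the 10 counted genes on the response list was over 2-fold lower in library 2, beside 25.9% of all counted genes, although 4 had a ratio below 1, and the median log2 ratio was 0.38. Smad7 and Pmepa1, which also respond to TGF-beta but stand on other lists, were over 2-fold lower. After adjustment for GC content and length, however, they had -0.87 and -0.04. Junb had 2008 and 1872 CPM and Cdkn1a, the gene of the cell cycle inhibitor p21, had 311 and 173 CPM. The 2 genes over 2-fold higher, beside 5.74% of all counted genes, were Id1 and Cdkn2b. Id1, a target shared with BMP signalling, had 2.40 and 11.1 CPM, and Cdkn2b had 20 and 79 counts. After the adjustment 0 of the 10 were lower and 3 were higher, beside 12.7% and 9.7% of all counted genes, and the median was 0.35. Ccn2, a classical target in fibroblasts, had 0 and 1 counts.

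Of 13 homeostatic genes of microglia that depend on TGF-beta, 3 were over 2-fold lower in library 2 and none was higher, which is near the 25.9% lower among all counted genes. Their median log2 ratio was 0.15. Tmem119, a surface marker of microglia, had 7057 and 6229 CPM. The 3 over 2-fold lower were Mertk, a phagocytic receptor gene, at -1.51 (-1.54 to -1.47), its ligand gene Gas6 at -1.32 (-1.36 to -1.28), and Sall1, a transcription factor gene of microglia, at -1.20 (-1.25 to -1.16). After adjustment for GC content and length these were -0.58, -1.20 and 0.03. Of the 13 genes, 8 are also in the microglia marker list, so their high level is no separate check of the cell type.

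**Figure D5:**
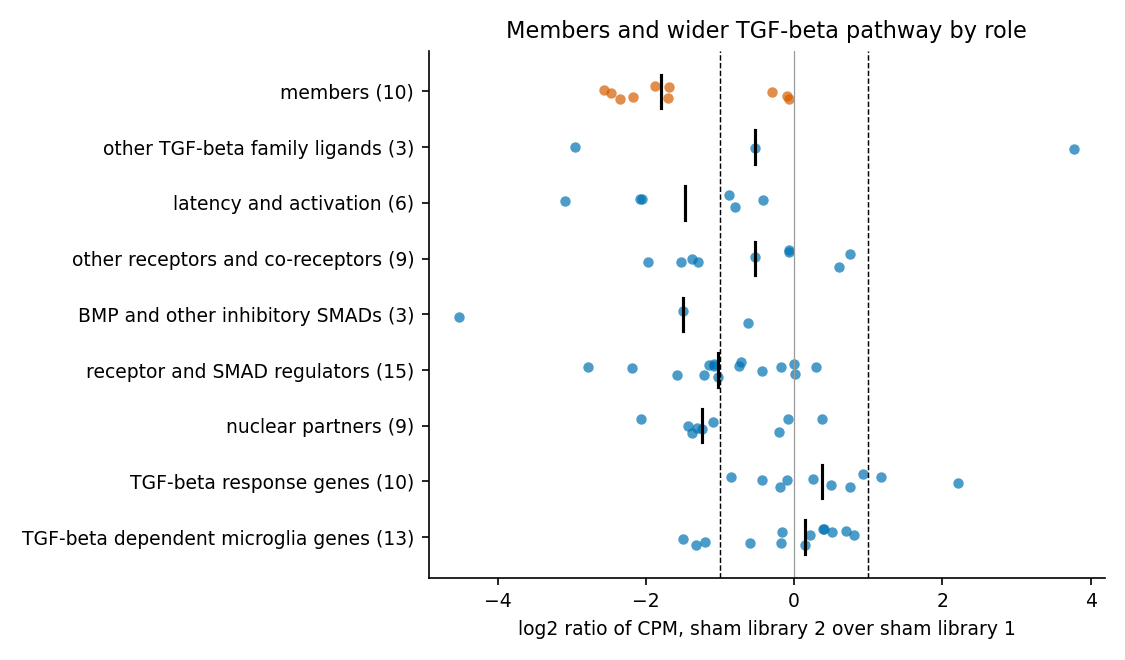
Log2 ratio of library 2 over library 1 for the members and for each role of the wider pathway, with 1 point per gene counted in both libraries (number in brackets), a black bar at the median and dashed lines at 2-fold. The members have a median of -1.79, and the response genes and the TGF-beta dependent microglia genes have medians of 0.38 and 0.15.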

How the data were processed

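The authors checked reads with FastQC, aligned them to GRCm38 by HISAT2, used HTSeq to assign them to Ensembl genes, and deposited whole-number counts with no normalization. Their cDNA came from the SMART-Seq HT Kit with Nextera XT tagmentation, and versions, annotation release and strand setting are not given in the sources used here. Symbols, exon lengths and GC content came from GENCODE M21 (GRCm38), which named 53706 of 53801 genes, and starts were converted to count from 1. No exon of a member overlapped an exon of another gene there.

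CPM was the count divided by the file total times 1000000. Both samples form 1 group by their titles. Counting intervals were exact (Poisson for levels, conditional binomial for ratios between libraries) and normal on the log scale for ratios between genes. A gene was counted if each library held 10 or more of its counts, and over 2-fold was the limit. The adjustment subtracted the median ratio of genes in the same of 10 bins each of GC content and length of the longest transcript, falling back on the GC bin where the joint bin held under 20 genes. It covered 13439 of 13445 counted genes. The spread came from edgeR 4.0.16 with TMM, and DESeq2 1.42.0 gave size factors. Other software was Python 3.11.15 with pandas 2.3.3, matplotlib 3.10.9, scipy 1.17.1 and numpy 2.4.6, beside R 4.3.3. The adjustment was tried on simulated counts with counting error alone, and the spread on simulated spreads below the one estimated here. Neither trial therefore matches the conditions of these data.

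The members and lists were chosen with earlier results of these data known. All members are named. From each role of the wider pathway list, the rule names the 2 genes of highest mean CPM, the gene of largest absolute log2 ratio, and genes with no count, and 1 gene that it names is not reported here. Genes that are few in a count and those said to be chosen after their values were seen are named too, and the pairs of members, the scaling to microglia markers and the minimum of 250 counts were also chosen then. One listed symbol, Ctgf, is an older name of Ccn2 and was counted as 1 gene with it.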

Additional observations from a re-analysis of the deposited data

How the results depend on the processing

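No paired analysis was possible because both libraries belong to 1 group. Member levels stayed within 1 SD under TMM, DESeq2 size factors and totals free of mitochondrial genes. For the 7 lower members, however, the SD is large beside the mean, so this check could hardly fail. Tgfb1, with 32.7 ± 31.1 CPM, had 31.1, 30.8 and 32.9 CPM in these settings. Leaving out 1 of 2 libraries stays within 1 SD by construction, so it says nothing about stability. The count of 7 lower members was 3 with the GC and length adjustment and 4 with length alone, a count chosen after seeing the data. It was 7 with the other scalings, with GC content alone and with limits of 1.5-fold and 3-fold. The other scalings add 1 constant to every log2 ratio, too small to bring any of the 7 past the limit. No share of all counted genes is given for GC content alone or for the 1.5-fold and 3-fold limits. Those counts therefore stand without a background. The members' median log2 ratio of -1.79 was -1.56 with TMM, -1.52 with DESeq2 size factors, -1.71 without neutrophil markers in the totals, -1.99 scaled to the microglia markers, -1.70 with the GC adjustment, -0.83 with length and -0.88 with GC and length. The ratio of Nrros reversed to 0.13 with TMM, 0.18 with DESeq2, 0.38 with GC and length, 0.19 with GC alone and 0.19 with length alone. That of Smad2 reversed to 0.16, 0.21, 0.75, 0.090 and 0.99 in the same settings and to 0.017 without neutrophil markers, and that of Ski to 0.041 with GC and length. In the wider list, 27 lower genes became 8 with GC and length and 12 with length, and 3 higher genes became 5 with TMM, 7 with DESeq2 size factors, 7 with GC and length, 5 with GC alone and 8 with length alone. Its median of -0.56 was -0.33 with TMM, -0.29 with DESeq2, -0.75 scaled to the microglia markers, -0.043 with GC and length, -0.31 with GC alone and -0.15 with length alone. TMM and DESeq2 shift every ratio by 0.23 and 0.27 by construction. For the adjustment by GC content and length the cause was not tested. The coefficient of variation was 0.477 to 0.550. With 2 libraries, differences between mice cannot be tested at any depth.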
